A study of Mus musculus with 2 samples.

Results

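The Hox genes of the 4 mouse clusters were examined in single cells of whole embryos at embryonic day 9.5. Members were the genes whose symbol reads Hoxa, Hoxb, Hoxc or Hoxd followed by a number and nothing else, which gave 39 of the 32285 genes listed. The data were 1 droplet-based 3′ RNA sequencing library of wild-type (WT) embryos and 1 of embryos with a germline knockout of Usb1 (Usb1-null), so that all cells of those embryos carry the deletion. The Usb1 protein is an exonuclease that shortens the tail of the spliceosomal U6 RNA. The study described Usb1-null embryos as smaller than their wild-type counterparts, and how many embryos were pooled per library is unknown here. With 1 library per genotype there is no replicate check and no test was made between genotypes. Each interval below is a 95% interval that covers counting error only.

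Hox genes encode homeodomain transcription factors that give cells of the neural tube, the mesoderm and the limbs their position along the head-to-tail axis. Genes that hold the same place in different clusters form a paralogue group. Those at the 3′ end of a cluster, with low paralogue numbers, come on early and reach far towards the head, whereas those at the 5′ end, with high numbers, come on later and stay near the tail. Forebrain and midbrain lie in front of the domains of the Hox genes. Cdx factors, retinoic acid, Fgf and Wnt signals act upstream of the clusters, and Pbx and Meis proteins bind DNA together with Hox proteins.

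In the GENCODE M21 annotation of GRCm38, the Hoxa cluster with 11 members lay on the minus strand of chromosome 6 (52155590 to 52260880). The Hoxb cluster with 10 members lay on the plus strand of chromosome 11 (96194316 to 96368256). The Hoxc cluster held 9 members on the plus strand of chromosome 15 (102921103 to 103036852), and the Hoxd cluster held 9 on the plus strand of chromosome 2 (74668310 to 74765142). The gene models of 11 members overlapped another member on the same strand. Hoxa3 overlapped Hoxa4, Hoxa5 and Hoxa6, Hoxd3 overlapped Hoxd4, and Hoxc5 overlapped Hoxc6, Hoxc8, Hoxc9 and Hoxc10. Reads in a shared stretch cannot be given to 1 gene with certainty, so the levels of these 11 members are uncertain.

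Promoter windows, from 250 bases before to 50 bases after a transcription start, came from RefSeq (GRCm38.p6), which held 24 windows for 22 members. Shown are the windows of the 4 members with at least 50 transcripts counted that held a Pbx-Hox match (TGATNNAT) or a Cdx match (TTTATNG) on either strand, because Pbx and Cdx genes are described with the Hox genes below. They were chosen after the matches were seen, and capitals mark Pbx-Hox, Cdx and Meis (TGACAG) matches.
Hoxb1: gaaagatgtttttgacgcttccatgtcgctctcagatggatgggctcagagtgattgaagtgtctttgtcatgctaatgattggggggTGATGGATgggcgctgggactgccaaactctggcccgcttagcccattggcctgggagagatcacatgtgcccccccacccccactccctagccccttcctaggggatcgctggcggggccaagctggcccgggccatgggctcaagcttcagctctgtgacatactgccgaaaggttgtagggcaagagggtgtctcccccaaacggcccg
Hoxa2: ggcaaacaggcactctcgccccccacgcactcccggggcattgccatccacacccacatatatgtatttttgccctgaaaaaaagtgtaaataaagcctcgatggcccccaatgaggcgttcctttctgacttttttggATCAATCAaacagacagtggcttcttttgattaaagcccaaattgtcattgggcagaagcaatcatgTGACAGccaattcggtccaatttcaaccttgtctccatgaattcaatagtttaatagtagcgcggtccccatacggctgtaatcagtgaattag
Hoxd4: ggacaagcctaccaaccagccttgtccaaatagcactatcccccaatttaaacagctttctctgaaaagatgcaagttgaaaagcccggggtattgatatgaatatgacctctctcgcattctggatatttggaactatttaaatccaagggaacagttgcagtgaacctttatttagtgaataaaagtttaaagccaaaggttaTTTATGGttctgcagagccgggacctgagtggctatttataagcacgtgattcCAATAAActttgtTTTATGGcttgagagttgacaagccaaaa
Hoxb8: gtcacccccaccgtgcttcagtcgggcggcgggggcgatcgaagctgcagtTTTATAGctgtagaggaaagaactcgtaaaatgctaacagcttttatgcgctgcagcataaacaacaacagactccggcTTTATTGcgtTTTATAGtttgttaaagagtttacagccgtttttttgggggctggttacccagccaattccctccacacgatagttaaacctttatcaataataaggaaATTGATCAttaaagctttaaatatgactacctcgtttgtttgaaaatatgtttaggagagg
These windows lay at chr11:96365508-96365807 (plus strand, Hoxb1), chr6:52164782-52165081 (minus strand, Hoxa2), chr2:74721728-74722027 (plus strand, Hoxd4) and chr11:96281655-96281954 (plus strand, Hoxb8). Cdx matches occurred 3 times in the Hoxd4 window and 3 times in the Hoxb8 window, and in no other Hox window. They were thus in 2 of the 24 Hox windows and in 10.9% of all 32851 promoters of that length. Pbx-Hox matches were in 4 Hox windows, those of Hoxb1, Hoxa2, Hoxb8 and 1 start of Hoxd11, and in 8.85% of all promoters. Meis matches were in 2 Hox windows and in 19.2% of all promoters. The CCAAT box (CCAAT) was in 15 of the 24 Hox windows and in 37.4% of all promoters.

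Hox transcripts were a small part of the RNA in both libraries. The 15161 wild-type cells kept held 15691 Hox UMIs (unique molecular identifiers, each standing for 1 captured transcript), and the 13018 Usb1-null cells held 25393. Relative to all UMIs this was 722 and 761 CPM, counts scaled to a library total of 1000000 UMIs, a ratio of 1.05 (1.03 to 1.07). Values below are given for wild-type first and Usb1-null second, and a ratio is Usb1-null over wild-type. The median depth was 1243 and 2299.5 UMIs per cell, so levels are compared as CPM. The libraries also differed in sex: Xist, made from the inactive X chromosome, stood at 2451 and 0.779 CPM, and Y-linked genes gave 14 and 23463 UMIs. Genotype and sex can therefore not be told apart. The same holds for genotype and any difference in developmental stage, because the Usb1-null embryos were described as smaller. Stage was not tested. Usb1 itself had 68 of 21732106 and 47 of 33383886 UMIs, but reads near the 3′ end of a transcript do not check a deletion of its first exons. A count of 3′ ends is not normalised by length. Whether reads in introns were counted is not stated, and with introns a long gene can collect more UMIs, so levels of different members are given as a description and their order is uncertain.

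Of the 39 members, 28 held at least 50 UMIs over both libraries and 7 held between 1 and 49. Hoxc12, Hoxd12, Hoxb13 and Hoxc13 had no UMI in either library, where a count of 0 allows up to 0.138 and 0.0899 CPM (3 counts). The 12 members of paralogue groups 10 to 13, which pattern the tail end of the body and the distal limb, held 49 and 89 UMIs between them. These are raw counts out of 21732106 and 33383886 UMIs. Hoxa10 had the most of them, with 24 and 44 UMIs (ratio 1.19, 0.71 to 2.05). Hoxd11 had 0 and 7 UMIs, and the interval of its ratio, which started at 0.938, takes in 1.

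Group 3 held the most UMIs. Hoxb3 stood at 115 and 131 CPM, Hoxd3 at 102 and 119.8 CPM and Hoxa3 at 43.7 and 51.7 CPM. Together these genes made up 36.1% and 39.8% of Hox UMIs. Their gene models were also among the 4 longest of the members, at 44275 bases for Hoxa3, 36516 for Hoxd3 and 24605 for Hoxb3, and those of Hoxa3 and Hoxd3 overlap other members. The part of gene length in these levels was not tested. In the other anterior groups the members with the most UMIs were Hoxb1 (15.2 and 11.7 CPM), Hoxb2 (26.2 and 39.7 CPM) and Hoxd4 (69.5 and 53.4 CPM). In the central groups they were Hoxa5 (17.6 and 20.4 CPM), Hoxb6 (43.2 and 48.7 CPM), Hoxa7 (15 and 13.5 CPM) and Hoxc8 (12.9 and 13.4 CPM), and in group 9 it was Hoxa9 (38 and 32.4 CPM). Paralogues differed widely in level. Hoxa6, of the same group as Hoxb6, stood at 1.75 and 0.659 CPM. The Hoxb cluster gave 43.4% (42.6 to 44.1) and 43.6% (43 to 44.2) of Hox UMIs, and the Hoxc cluster 12.4% (11.9 to 12.9) and 13.8% (13.4 to 14.3).

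**Figure D1:**
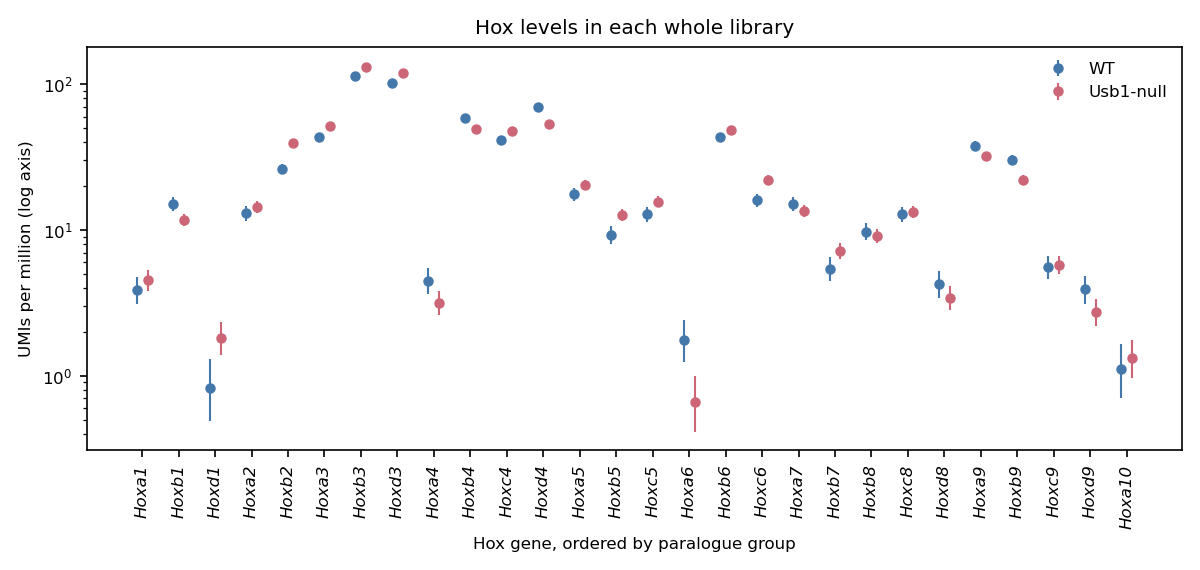
Level of each of the 28 Hox genes with at least 50 UMIs in the wild-type (WT) and Usb1-null library, in CPM on a log axis, with 95% Poisson intervals for counting error only. Hoxb3 stands highest (115 and 131 CPM), Hoxb2 lies higher in the Usb1-null library (26.2 and 39.7 CPM) and Hoxb9 lower (30.1 and 22.2 CPM).

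Members were compared between the libraries by a limit of 5 to 4, used as a description of size: higher was past a ratio of 5 to 4 and lower past a ratio of 4 to 5. Among the 28 members with at least 50 UMIs, 5 were higher in the Usb1-null library past this limit, against 17.8% of all 16752 genes with that many UMIs. Another 6 were lower, against 16.9% of all genes. The median log2 ratio, with nothing added to the counts, was 0.16 for the members and -0.00162 for all 16752 genes. Past 1.5-fold, 2 members were higher and 1 was lower, against 9.2% and 5.9% of all genes. With only cells of at least 1000 detected genes, 8 members were higher past the limit of 5 to 4, against 18.8% of all genes, and 6 were lower, against 14.5%.

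The members higher past the limit were anterior or central genes. Hoxb2, which acts in hindbrain segments, had 569 and 1327 UMIs (26.2 and 39.7 CPM, ratio 1.52, 1.38 to 1.68). Hoxd1 had only 18 and 61 UMIs (ratio 2.21, 1.29 to 3.97). The other higher members belong to the central groups, which pattern the neck and chest region. Hoxb5 stood at 9.29 and 12.7 CPM (ratio 1.37, 1.15 to 1.62), Hoxc6 at 16 and 22.1 CPM (ratio 1.38, 1.22 to 1.58) and Hoxb7 at 5.43 and 7.16 CPM (ratio 1.32, 1.05 to 1.66). Hoxc6 overlaps Hoxc5 and is among the members with uncertain reads.

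Of the lower members, Hoxa6 had the largest fold, with 38 and 22 UMIs (ratio 0.377, 0.212 to 0.654), and its gene model lies within that of Hoxa3. Hoxb1, which specifies a hindbrain segment, stood at 15.2 and 11.7 CPM (ratio 0.773, 0.666 to 0.898). Group 4 held a further pair, Hoxd4 at 69.5 and 53.4 CPM (ratio 0.769, 0.718 to 0.824) and Hoxa4 at 4.46 and 3.18 CPM (ratio 0.711, 0.535 to 0.947). Their paralogues lay within the limit on either side of 1, Hoxb4 at 59.1 and 49.3 CPM (ratio 0.834) and Hoxc4 at 41.3 and 47.4 CPM (ratio 1.15). In group 9, whose genes act in the trunk and the limb field, Hoxb9 stood at 30.1 and 22.2 CPM (ratio 0.737, 0.662 to 0.82) and Hoxd9 at 3.91 and 2.73 CPM (ratio 0.697, 0.513 to 0.948). Hoxa9 at 38 and 32.4 CPM (ratio 0.852) and Hoxc9 at 5.57 and 5.75 CPM (ratio 1.03) lay within the limit.

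Summed by axial position, the ratio was above 1 for anterior and central genes and below 1 for posterior genes. Anterior genes (groups 1 to 4) summed to 494 and 528 CPM (ratio 1.07, 1.04 to 1.09). Central genes (groups 5 to 8) summed to 148 and 167 CPM (ratio 1.13, 1.08 to 1.18). Posterior genes (groups 9 to 13) summed to 79.8 and 65.7 CPM (ratio 0.823, 0.772 to 0.877), nearly all of it from group 9. None of these sums passed the limit of 5 to 4. Weighted by UMIs, the mean paralogue number of a Hox transcript was 4.46 (4.43 to 4.5) and 4.29 (4.27 to 4.32), a difference of -0.167 (-0.21 to -0.125).

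Cells were grouped into 25 clusters on genes other than Hox genes, and a cluster was given a name ending in "-like" only where a marker of that cell type was among its 10 leading genes and no other type had more there. In clusters 3 (craniofacial mesenchyme-like, with Sox10 leading), 14 (floor plate and ventral neural tube-like) and 16 (splanchnic lateral plate mesoderm-like) the type ranked second, neural crest, gut endoderm, and septum transversum and epicardium, had as many. Among the 21 classes that held 100 cells or more per library, presomitic mesoderm and tail bud-like cells, the source of new somites at the tail end, had the highest summed Hox level, at 2608 and 3127 CPM. They numbered 126 and 138 cells and had 9 raised markers of their type, with Dll1 and Dll3 among the leading genes. Cyp26a1, a marker of this type that acts in the tail bud, had only 0 and 1 UMIs there. Cdx2 and Cdx4 had 0 and 3 UMIs each, so tail bud cells are not shown by these genes. Intermediate mesoderm-like cells, which form the early kidney, had 2091 and 2166 CPM, and neural tube progenitor-like cells 2084 and 2152 CPM. The intervals of these classes overlapped in the wild-type library (1880.3 to 2319 and 2025 to 2145 CPM), so their order is not resolved. Limb bud and body wall mesenchyme-like cells had 1478 and 1494 CPM. Cluster 1, which stayed unnamed although the somite genes Meox1, Meox2, Uncx and Dmrt2 were among its leading genes, had 979 and 987 CPM. Splanchnic lateral plate mesoderm-like cells had 869 and 937 CPM.

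Classes that should lack Hox transcripts gave the background. Forebrain-like cells had 163 CPM (141 to 187) and 132 CPM (115 to 149.8), midbrain-like cells 132 and 129.5 CPM and primitive erythroid-like cells 344 and 187 CPM. When each cell was thinned to 500 UMIs, a Hox UMI was found in 4.28% and 5.33% of forebrain-like cells (median depths 1340 and 2462.5 UMIs) and in 60.7% and 58.1% of neural tube progenitor-like cells (1140.5 and 2153 UMIs). Without thinning these shares were 11.5% and 18.5%, and 82.7% and 92.3%. In 15 of the 21 classes the interval of the summed level lay wholly above that of forebrain-like cells in both libraries. Of these, surface ectoderm-like (316 and 287 CPM), craniofacial mesenchyme-like (312 and 286 CPM) and endothelial-like cells (284 and 332 CPM) and cluster 5 (323 and 316 CPM) were below primitive erythroid-like cells in the wild-type library and above them in the Usb1-null library. The part of background in their Hox values was not tested.

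**Figure D2:**
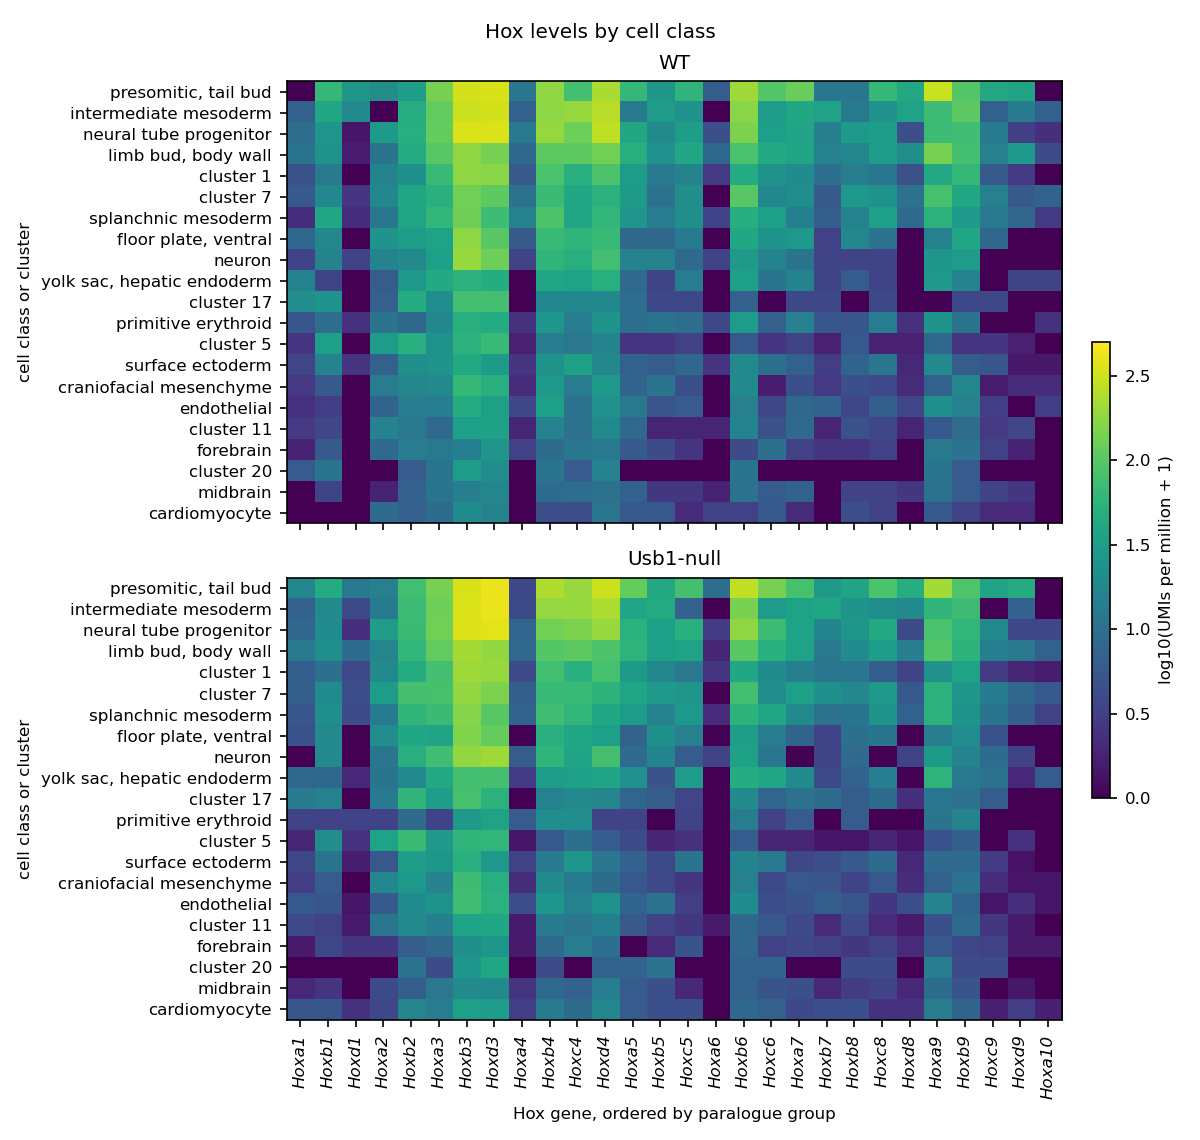
Levels of the 28 Hox genes with at least 50 UMIs (by paralogue group) in 21 cell classes or clusters, for wild-type (WT) and Usb1-null, with the colour on a log scale of CPM. Hoxa9 is bright in presomitic mesoderm and tail bud-like cells (297 and 210.3 CPM), and cluster 5 is dim from group 4 onwards (Hoxd4, 15.3 and 5.16 CPM).

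The axial make-up of Hox UMIs differed between classes. In cluster 5, which shared raised markers with neural tube progenitors but had none of them among its leading genes, 90.3% and 91.9% of Hox UMIs were anterior. Groups 1 to 3 alone gave 78% (73.7 to 81.8) and 85.8% (82.9 to 88.3), against 46.3% and 50.4% in forebrain-like and 41.2% and 44% in primitive erythroid-like cells. Hoxd3 (64.3 and 58.6 CPM), Hoxb3 (53.5 and 58.1 CPM) and Hoxb2 (48.2 and 68.4 CPM) led there. Hoxa2, which patterns the second pharyngeal arch, stood at 29.1 and 36.1 CPM, and Hoxb1 stood at 32.1 and 20.6 CPM. The windows of these last genes, printed above, each held 1 Pbx-Hox match. Central and posterior genes in cluster 5, at 20.7 and 15 CPM and 10.7 and 10.8 CPM, were no higher than in forebrain-like cells (29.9 and 24.8 CPM and 25.1 and 11 CPM).

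Posterior genes were highest in presomitic mesoderm and tail bud-like cells, at 469 and 384 CPM, with Hoxa9 alone at 297 and 210.3 CPM. Anterior genes were high there too, at 1447 and 1803 CPM, beside 1542 and 1478 CPM in neural tube progenitor-like cells. In limb bud and body wall mesenchyme-like cells posterior genes summed to 267 and 188 CPM, or 18% and 12.6% of Hox UMIs. The same share was 7.67% and 7.79% in neural tube progenitor-like cells. Hoxd9 and Hoxd8 were low in the neural class. Hoxd9 stood at 27 and 11 CPM in limb bud and body wall mesenchyme-like cells and at 2.26 and 2.74 CPM in neural tube progenitor-like cells, and Hoxd8 at 20.4 and 13.3 CPM and 3.61 and 3.02 CPM.

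Of the 28 members with at least 50 UMIs, 13 had their highest level in presomitic mesoderm and tail bud-like cells in the wild-type and 20 in the Usb1-null library. For 17 of the 28 the same class was highest in both libraries. Neural tube progenitor-like cells held the highest level of 6 members in the wild-type library, among them Hoxb4, Hoxd4 and Hoxb8, and of 0 in the Usb1-null library. These ranks follow single values: the highest class lay above every other class by its counting interval for 1 member in the wild-type and 6 in the Usb1-null library, in presomitic mesoderm and tail bud-like cells each time. In presomitic mesoderm and tail bud-like cells Hoxc4 had 15 and 68 UMIs (78.1 and 191 CPM, ratio 2.44, 1.38 to 4.6). Hoxd4 stood there at 229 and 308 CPM (ratio 1.35, 0.941 to 1.96) and Hoxa9 had a ratio of 0.709 (0.496 to 1.02). These ratios rest on few cells, and the intervals of the latter genes span 1.

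In neural tube progenitor-like cells the central genes differed most. They summed to 383 and 506 CPM (ratio 1.32, 1.22 to 1.44), while anterior genes had a ratio of 0.959 (0.918 to 1.0) and posterior genes a ratio of 1.05 (0.919 to 1.2). Hoxc6 had 72 and 253 UMIs (32.5 and 69.3 CPM, ratio 2.13, 1.64 to 2.81). Its neighbour Hoxc5 stood at 31.6 and 51.3 CPM (ratio 1.62) and Hoxb5 at 18.5 and 32.1 CPM (ratio 1.73, 1.2 to 2.54). Lower levels in the Usb1-null library came from Hoxd4, at 274 and 191 CPM (ratio 0.698, 0.625 to 0.779), and Hoxb4, at 184 and 134 CPM (ratio 0.726, 0.635 to 0.83). Past the limit of 5 to 4, 7 of 21 members were higher, against 15.8% of all genes in this class, and 3 were lower, against 20.7%. These ratios depended on the clustering. At Leiden resolution 2 the class of this name held 2119 cells, and the central ratio was 0.971 (0.851 to 1.11).

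Limb bud and body wall mesenchyme-like cells differed in their posterior genes, which summed to 267 and 188 CPM (ratio 0.705, 0.613 to 0.811). Anterior genes had a ratio of 1.08 (1.01 to 1.16) there and central genes a ratio of 1.07 (0.956 to 1.19). Hoxa9 had 213 and 206 UMIs (140.2 and 94.5 CPM, ratio 0.674, 0.554 to 0.82). Its paralogues were lower too, Hoxb9 at 77.6 and 54.1 CPM (ratio 0.697, 0.535 to 0.907) and Hoxd9 at 27 and 11 CPM (ratio 0.408, 0.236 to 0.691), whereas Hoxc9 stood at 13.8 and 13.8 CPM. Hoxd4 stood at 134 and 86.2 CPM (ratio 0.645, 0.526 to 0.791) and Hoxd3, which overlaps it, at 138 and 181 CPM (ratio 1.31, 1.11 to 1.56). Past the limit of 5 to 4, 4 of 22 members were higher, against 15.9% of all genes in this class, and 5 were lower, against 21%.

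In cluster 1 posterior genes summed to 111 and 63.1 CPM (ratio 0.569, 0.469 to 0.69). With Hox genes used for clustering, the cluster matched to it had a ratio of 0.272, and no cluster matched it at Leiden resolution 2 or with 4000 variable genes. Hoxb9 stood at 62.3 and 36 CPM (ratio 0.578, 0.446 to 0.748) and Hoxa9 at 42 and 23.5 CPM (ratio 0.559, 0.405 to 0.769). At the other end of the axis, Hoxb2 stood at 21.7 and 45.7 CPM (ratio 2.11, 1.5 to 2.99). The mean paralogue number was 4.43 (4.34 to 4.52) and 3.99 (3.92 to 4.05). Past the limit of 5 to 4, 2 of 19 members were higher, against 13.4% of all genes in this cluster, and 5 were lower, against 18.1%.

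Splanchnic lateral plate mesoderm-like cells, which contribute to the gut wall, had posterior genes at 104 and 98.8 CPM (ratio 0.948, 0.776 to 1.16). The class pools clusters 8 and 16, and Wt1 and Tbx18, markers of septum transversum and epicardium, were among the leading genes of the latter. Posterior genes gave 13.1% and 11.4% of Hox UMIs in cluster 8 and 4.74% and 3.49% in cluster 16. With another clustering seed the posterior ratio of the class was 0.742. Hoxb1 had 60 and 54 UMIs (37.2 and 21.2 CPM, ratio 0.569, 0.386 to 0.835). Group 4 members differed among themselves, with Hoxc4 at 37.8 and 59.2 CPM (ratio 1.56, 1.15 to 2.14) and Hoxd4 at 60.8 and 40.4 CPM (ratio 0.664, 0.499 to 0.885). Past the limit of 5 to 4, 6 of 17 members were higher, against 15.4% of all genes in this class, and 3 were lower, against 20.9%.

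The interval of posterior genes lay wholly above that of forebrain-like cells in both libraries in 8 classes. In 3 of them, cluster 1, cluster 7 (ratio 0.685, 0.508 to 0.923) and limb bud and body wall mesenchyme-like cells, the interval of the posterior ratio lay below 1. The intervals of the others spanned 1. The ratio was 0.633 (0.36 to 1.12) in floor plate and ventral neural tube-like cells, from 25 and 30 UMIs, and 0.667 (0.417 to 1.08) in intermediate mesoderm-like cells, from 34 and 44 UMIs. It was 0.82 (0.624 to 1.08) in presomitic mesoderm and tail bud-like cells. Splanchnic lateral plate mesoderm-like and neural tube progenitor-like cells, given above, made up the rest, and at Leiden resolution 2 the neural ratio was 0.685. Yolk sac and hepatic endoderm-like cells, whose wild-type interval overlapped the forebrain-like one, had posterior genes at 50.9 and 82.9 CPM (ratio 1.63, 0.99 to 2.81). Posterior levels in classes near background went in both directions. They were 25.1 and 11 CPM in forebrain-like cells (ratio 0.437, 0.233 to 0.799), 18.8 and 13.2 CPM in midbrain-like cells (ratio 0.70, 0.381 to 1.3) and 36.8 and 27.4 CPM in primitive erythroid-like cells (ratio 0.745, 0.332 to 1.56). In cardiomyocyte-like cells they were 9.21 and 24.4 CPM (ratio 2.65, 1.21 to 6.64), and all Hox genes there summed to 109 and 205 CPM (ratio 1.87, 1.48 to 2.39). The part of background in the ratios was not tested. Cluster 7 was shallow, with medians of 720.5 and 1152.5 UMIs per cell, and had no marker among its leading genes. With its cells left out, a choice made after seeing the data, the whole-library posterior ratio was 0.832.

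**Figure D3:**
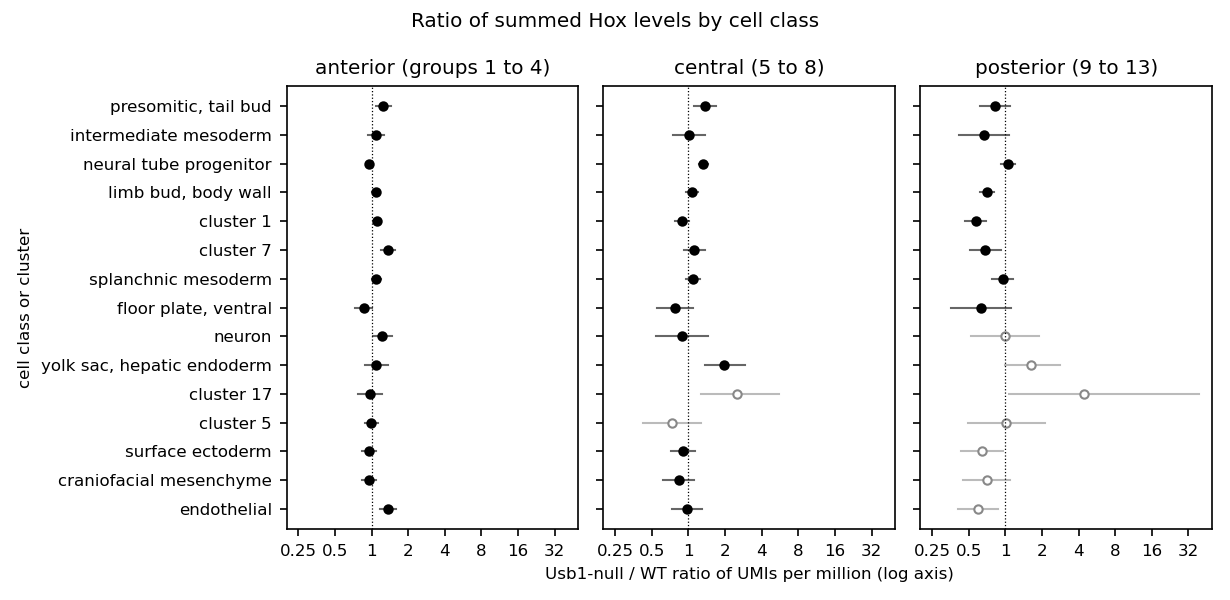
Usb1-null over wild-type ratio (log axis) of summed anterior, central and posterior Hox levels by cell class, with 95% intervals for counting error, where open grey points mark classes in which that axial group did not have an interval wholly above the forebrain-like one in both libraries. Posterior points lie at 0.705 in limb bud and body wall mesenchyme-like cells, 0.569 in cluster 1 and 1.05 in neural tube progenitor-like cells.

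**Figure D4:**
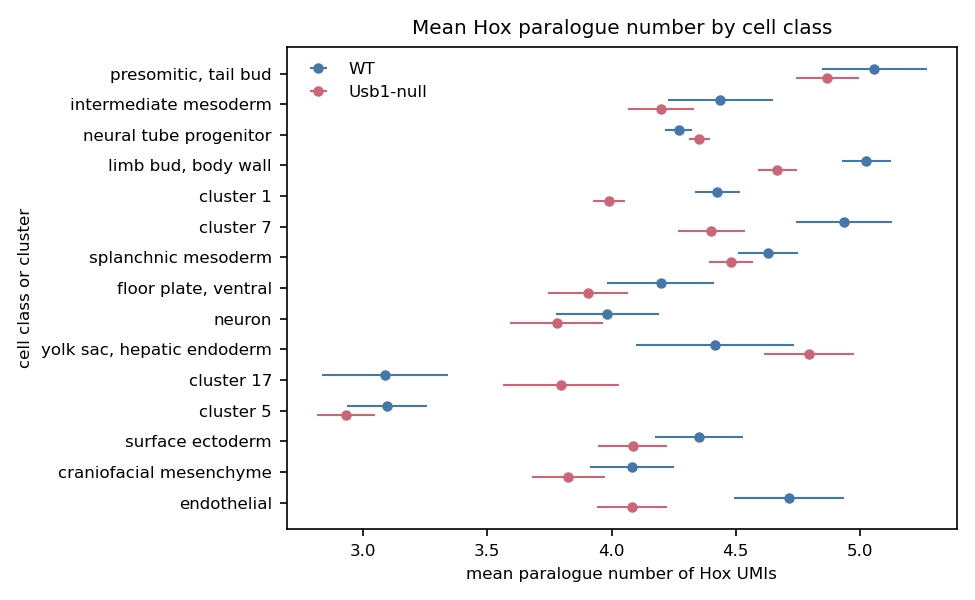
Mean paralogue number of Hox UMIs by cell class for wild-type (WT) and Usb1-null, with 95% counting intervals. It was 5.03 and 4.67 in limb bud and body wall mesenchyme-like cells, 4.43 and 3.99 in cluster 1, and 4.27 and 4.35 in neural tube progenitor-like cells, whose difference turned to -0.164 at Leiden resolution 2.

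Over the 21 classes, the interval of the difference in mean paralogue number lay below 0 in 8 and above 0 in 3. The latter were neural tube progenitor-like cells, yolk sac and hepatic endoderm-like cells (4.42 and 4.8, a difference of 0.379, 0.0136 to 0.744) and cluster 17, which stayed unnamed (3.09 and 3.8, a difference of 0.707, 0.362 to 1.05). The endoderm-like class pools clusters 15 and 22, whose own intervals spanned 0 (0.376, -0.00603 to 0.758, and 0.889, -0.413 to 2.19). Cluster 15, which held most of its cells, had 9 raised markers of its own type and 8 of gut endoderm. The pooled splanchnic lateral plate mesoderm-like class spanned 0 (-0.148, -0.297 to 0.00117). Of its parts, cluster 8 lay below 0 (-0.168, -0.33 to -0.00497) and cluster 16 spanned 0 (-0.229, -0.553 to 0.0943). Among the intervals clear of 0, cluster 17 had the largest difference, and its Hox UMIs numbered 125 and 308.

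Cells were also sorted by the most posterior group of Hox genes with a UMI, after thinning to 500 UMIs. This measures detection and does not fix the position of a cell. Of limb bud and body wall mesenchyme-like cells, 127 and 69 had a posterior UMI but only 18 and 6 had at least 2. Of limb bud and body wall mesenchyme-like cells, 12.3% of 1036 (10.3 to 14.4) and 8.19% of 842 (6.43 to 10.3) had a posterior UMI, a ratio of 0.668 (0.491 to 0.903). Without thinning, the deeper Usb1-null cells reached 27.1% against 26.1%. Neural tube progenitor-like cells had a posterior UMI in 6.08% and 6.78%, a ratio of 1.12 (0.844 to 1.47), and in 15.7% and 21.4% without thinning. At Leiden resolution 2 the neural ratio turned to 0.543 (0.316 to 0.909). In cluster 1 the shares were 4.56% and 3.44%, a ratio of 0.756 (0.496 to 1.14), and in splanchnic lateral plate mesoderm-like cells 4.14% and 3.64%, a ratio of 0.88 (0.549 to 1.4). Both intervals span 1. For cluster 1 the interval lay below 1 when cells were thinned to 1000 UMIs (0.653, 0.468 to 0.905). It did so too without library correction (0.627, 0.412 to 0.941) and with Hox genes used for clustering (0.221, 0.0667 to 0.581). The interval spanned 1 at resolution 0.4, with another seed, without thinning and where at least 2 UMIs were needed. Presomitic mesoderm and tail bud-like cells had one in 19% and 18.8%. In forebrain-like cells, the background of this measure, the shares were 0.857% of 817 and 0.157% of 638 cells, and so rest on very few cells.

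**Figure D5:**
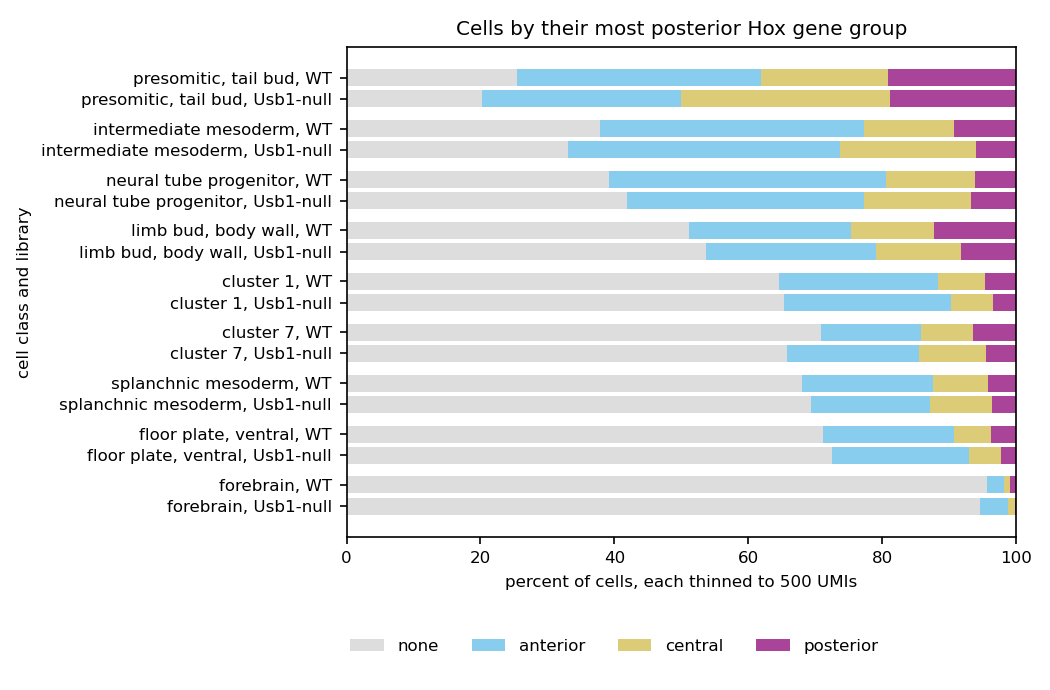
Percent of cells, each thinned to 500 UMIs, by the most posterior group of Hox genes with a UMI, for classes above background for posterior genes and the forebrain-like class, with wild-type (WT) and Usb1-null side by side. A posterior UMI is found in 12.3% and 8.19% of limb bud and body wall mesenchyme-like cells. In forebrain-like cells it is found in 0.857% of 817 and 0.157% of 638 cells.

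Cells with a posterior UMI were also read for anterior and central Hox UMIs. Among thinned neural tube progenitor-like cells with a posterior UMI, 66% of 106 wild-type cells (56.2 to 75) and 70.8% of 106 Usb1-null cells (61.1 to 79.2) had an anterior UMI, against 53.2% and 50.9% of all cells of the class. A central UMI was found in 35.8% (26.8 to 45.7) and 65.1% (55.2 to 74.1) of the cells with a posterior UMI, against 15.5% and 20.3% of all cells of the class. In limb bud and body wall mesenchyme-like cells the share with an anterior UMI was 40.9% of 127 (32.3 to 50) and 60.9% of 69 (48.4 to 72.4), against 33.8% and 35.4% of all cells, and in cluster 1 it was 31.2% of 64 (20.2 to 44.1) and 45% of 40 (29.3 to 61.5), against 27.5% and 28.7% of all cells. The share with a central UMI was 22.8% and 30.4% in the limb class, against 15.2% and 15.2% of all cells. In cluster 1 it was 23.4% and 17.5%, against 8.19% and 6.8%. In presomitic mesoderm and tail bud-like cells it was 50% of 24 (29.1 to 70.9) and 26.9% of 26 (11.6 to 47.8), against 28.6% and 36.2%. The share with an anterior UMI there was 66.7% (44.7 to 84.4) and 73.1% (52.2 to 88.4), against 53.2% and 63.8%. Few cells stand behind each value of this class.

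Cluster use differed between classes. The Hoxd cluster gave 30.9% and 27% of Hox UMIs in neural tube progenitor-like cells and 17.2% and 16.6% in splanchnic lateral plate mesoderm-like cells. The Hoxa cluster gave 24.4% and 22.9% in limb bud and body wall mesenchyme-like cells and 14.9% and 16.3% in neural tube progenitor-like cells. The Hoxc cluster gave 11.3% (10.4 to 12.2) and 15.3% (14.5 to 16.1) in neural tube progenitor-like cells.

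Of 9 genes for proteins that bind DNA with Hox proteins (the Pbx, Meis and Pknox families), 0 were past the limit of 5 to 4 in either direction, where 17.8% of all genes were higher and 16.9% lower. Meis2 stood at 1786 and 1885 CPM, above the sum of all Hox genes. Of 16 axial regulators with at least 50 UMIs, 4 were higher past this limit and 0 were lower, against the same 17.8% and 16.9% of all genes. Cdx2, an activator of central and posterior Hox genes, had 21 and 94 UMIs (ratio 2.91, 1.8 to 4.93). T, a gene of the tail bud and notochord, had 49 and 125 UMIs (ratio 1.66, 1.18 to 2.36). Egr2, which acts in the third and the fifth hindbrain segments, had 16 and 58 UMIs (ratio 2.36, 1.34 to 4.4), and Cyp26a1, which degrades retinoic acid in the tail bud, 55 and 111 UMIs (ratio 1.31, 0.943 to 1.85). Cdx1 had 33 and 57 UMIs (ratio 1.12) and Cdx4 3 and 28 UMIs, under the minimum of 50. In neural tube progenitor-like cells, where the central Hox genes differed, Cdx2 had 3 and 32 UMIs. Presomitic mesoderm and tail bud-like cells made up 0.831% and 1.06% of cells. They held few UMIs of these genes, 0 and 3 of Cdx2, 0 and 3 of Cdx4 and 0 and 1 of Cyp26a1. Yolk sac and hepatic endoderm-like cells held 8 and 26 Cdx2 UMIs. The part of these differences in the Hox values was not tested.

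Of 15 chromatin regulators of Hox genes, 3 were higher and 1 was lower past that limit, against those same shares of all genes. The Polycomb gene Pcgf2 stood at 30.6 and 55.5 CPM (ratio 1.82, 1.66 to 1.99), its relative Bmi1 at 12.4 and 17.9 CPM (ratio 1.44) and Jarid2, a partner of Polycomb repressive complex 2, at 312 and 397 CPM (ratio 1.27). Ring1 stood at 33.8 and 26.7 CPM (ratio 0.79, 0.716 to 0.873). Of 8 noncoding genes of the Hox clusters with at least 50 UMIs, 1 was higher past the limit, Halr1 at 4.28 and 5.66 CPM (ratio 1.32, 1.03 to 1.71), and 0 were lower, and such counts of so few genes are not read against those shares. Hoxb3os, antisense to Hoxb3, stood at 101 and 97.8 CPM.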

How the data were processed

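Single-cell 3′ libraries of 1 wild-type and 1 Usb1-null sample were analysed. The deposited files hold raw UMI counts per gene and barcode, which the authors made with Cell Ranger (6.1.2 per the file headers, 2.1.1 per the submitters' processing notes) on mm10. Intron counting is not stated. The labels name nuclear RNA, whereas the methods describe a suspension of cells.

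Cells with 200 to 6000 detected genes and under 30% mitochondrial UMIs were kept (15161 of 15162 and 13018 of 13034 barcodes), with 21732106 and 33383886 UMIs. Scrublet called 6.15% and 4.37% of cells as doublets, which were kept except in an alternative. The libraries shared 61 barcodes. Cells were clustered without Hox genes (Scanpy 1.11.5, 2000 variable genes, 30 components, Harmony on library, Leiden resolution 1). To be named, a cluster needed 3 or more raised markers of 1 list, more than of any other, and that list could not be outnumbered among its 10 leading genes. The need for a marker of its own among those genes was added after the clusters were seen. These names are rebuilt here.

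UMIs were summed per library or class. Intervals are exact (Poisson for levels, Clopper-Pearson for shares, conditional binomial for ratios, SciPy 1.17.1), except that the mean paralogue number has a Poisson counting interval. Log2 differences of single genes used 1 CPM added, medians of log2 ratios none. The interval code was tested on simulated data. All members could be named; those past a ratio of 5 to 4 with at least 50 UMIs, the leading member of each paralogue group and the leading members of classes were given in full, as were pathway genes past that limit and the Cdx genes. Other class values were chosen after they were seen. The members and lists were chosen with earlier results of these data known. Alternatives changed cell filters, scaling, thresholds, clustering and thinning. Protein sequences were not used here.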

Additional observations from a re-analysis of the deposited data

Results flagged for a closer look

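The Hoxa9 ratio (Usb1-null over wild-type) lay on opposite sides of 1 in different classes. It was 1.99 in yolk sac and hepatic endoderm-like cells, from 11 and 55 UMIs. It was 0.559 in cluster 1, 0.674 in limb bud and body wall mesenchyme-like cells, 0.659 in cluster 7 and 0.449 in surface ectoderm-like cells, the last from 33 and 23 UMIs. With 1 library per genotype the difference between these classes was not tested. In the endoderm-like and surface ectoderm-like classes the interval of posterior genes overlapped that of forebrain-like cells in at least 1 library.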

How the results depend on the processing

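No paired analysis was possible because each genotype had 1 library, and for the same reason no replicate could be left out. Of 355 recomputed values, 316 moved by no more than the counting error or, for counts, by less than 1.5 times, 35 moved further and 4 turned direction, and the cause of these changes was not tested. A turn was counted only where the reported interval left out no change. Ratios whose reported interval took in 1 also crossed it, among them the neural tube progenitor-like posterior ratio and ratio of posterior cell shares, the limb central ratio and the splanchnic central ratio and ratio of posterior cell shares at Leiden resolution 2, the cluster 1 central ratio at resolution 0.4 and the neural tube progenitor-like anterior ratio without library correction. At Leiden resolution 2, the neural tube progenitor-like central ratio turned to 0.971 and the difference in mean paralogue number to -0.164, with an anterior ratio of 0.913, a posterior ratio of 0.685, a ratio of posterior cell shares of 0.543 and a Hoxb share higher by 0.704 percentage points. There the splanchnic lateral plate mesoderm-like anterior ratio turned to 0.983, with a central ratio of 0.799 and a ratio of posterior cell shares of 1.44, and the limb bud and body wall mesenchyme-like central ratio was 0.927. Without thinning, the ratio of posterior cell shares turned to 1.04 in limb bud and body wall mesenchyme-like cells and was 1.45 in splanchnic lateral plate mesoderm-like cells. Without library correction, neural tube progenitor-like anterior, central and posterior ratios were 1.06, 1.59 and 1.28, with a mean paralogue difference of 0.177. Splanchnic central and posterior ratios were then 0.945 and 0.693, with a mean paralogue difference of -0.343. The splanchnic posterior ratio was 0.742 with another seed and 0.735 with 4000 variable genes, where the central ratio was 0.897. With Hox genes used for clustering, cluster 1 had a central ratio of 0.664, a posterior ratio of 0.272, a mean paralogue difference of -0.619 and a ratio of posterior cell shares of 0.221, and the splanchnic central ratio was 0.931. At resolution 0.4 the cluster 1 central ratio was 1.07. Counting only cells with at least 2 posterior UMIs, the ratio of shares was 0.41 (0.133 to 1.08, from 18 and 6 cells) in limb bud and body wall mesenchyme-like cells, 0.302 (0.0313 to 1.51, from 8 and 2 cells) in cluster 1 and 0.251 (0.0264 to 1.21, from 9 and 2 cells) in splanchnic lateral plate mesoderm-like cells, and these intervals all span 1. With at least 1000 detected genes per cell, 8 members were higher past a ratio of 5 to 4 and the ratio of all Hox genes was 1.08. Past 1.5-fold, 2 members were higher and 1 was lower, as were 1 and 0 chromatin regulators, and 0 noncoding genes were higher.

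Some classes were not found again and gave no value: presomitic mesoderm and tail bud-like cells with Hox genes used for clustering and at resolution 0.4, limb bud and splanchnic classes at resolution 0.4, and cluster 1 at resolution 2 and with 4000 variable genes. The whole-library posterior ratio was between 0.805 and 0.862 in the alternatives run. Thinning to 1000 UMIs left out 4973 wild-type and 612 Usb1-null cells. The genes of groups 10 to 13 and some class values rest on few UMIs, and the part of depth in this was not tested. Spread between embryos or libraries is not covered by any interval.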
